A study of Marchantia polymorpha and Arabidopsis thaliana and Oryza sativa Japonica Group with 80 samples.

Results

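Gene expression in gemmalings of the liverwort Marchantia polymorpha was compared after 24 h and at 0 h of a treatment with NaCl. The comparison rests on 6 of the 80 samples of the series, all from the second of its Marchantia experiments: 3 libraries at 24 h and 3 at 0 h, chosen by the time in their labels. The 3 libraries of the same experiment taken at 2 h helped to estimate the spread and were read beside the 2 end points. All of these libraries carry the label of strain Tak1, wild type, and come from 7-day-old gemmalings grown in liquid B5 medium of reduced strength under continuous light. Per the labels' protocol the medium held 100 mM NaCl. The deposited sheet of conditions writes the same code, Crt, before each time and does not name salt. No library without salt was taken after 0 h. Salt therefore cannot be told apart from the change of medium, handling or 24 h of further growth.

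Marchantia polymorpha is a land plant whose main body, the thallus, is haploid and grows by cell division at its notches. Gemmae are small clonal discs made in cups on the thallus, and the young plants that grow from them are called gemmalings. Tak1 is a male strain and carries a Y chromosome. In plants generally, NaCl acts first by drawing water from cells and later by the build-up of sodium ions, and both phases are known to change the expression of many genes. The deposited tables identify Marchantia genes by locus names of the form Mapoly, a scaffold number, the letter s and a position on that scaffold. The gene table used here holds no such names (0 loci matched), so the loci below are described by their values and their neighbours, and no function is given for them.

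The 9 libraries held 7903835 to 11475449 counted reads. The lowest total was that of replicate 1 at 24 h, and the 3 libraries at 0 h held 9419319, 9602178 and 10567700. Unmapped reads made up 26.6% to 27.6% of reads in the 3 libraries of replicate number 1 and 10.9% to 12.6% in the other 6, at every time alike. Reads that fell on overlapping features were 20.1% to 20.6% at 24 h and 18.5% to 19.2% at 0 h. These are shares of the counted reads and the reads on overlapping features together, with unmapped reads left out. On this measure the times did not overlap, and the part of this in the results was not tested. Counts of 19755 gene numbers at 16743 loci were deposited, and 9896 gene numbers (50.1%) at 9802 loci held enough reads to be tested. Of those tested, 1038 shared a locus name with another gene number, so their reads may have been split between models of the same gene. The series calls its replicates biological without saying how each was grown, and the p-values measure the spread between these libraries.

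Time was the main axis of difference among the 9 libraries. The first principal component of log2 CPM held 51.9% of the variance and placed the 3 libraries at 0 h at −45.2, −44.7 and −43.2. The 3 libraries at 24 h lay at 58.2, 54.6 and 48.6 on the same axis, and those at 2 h lay between, at −9.48, −1.60 and −17.2. The second component, with 28.2%, set the 2 h libraries apart from both end points. The third, with 7.86%, separated replicate number 1 from replicate number 2 at every time.

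**Figure D1:**
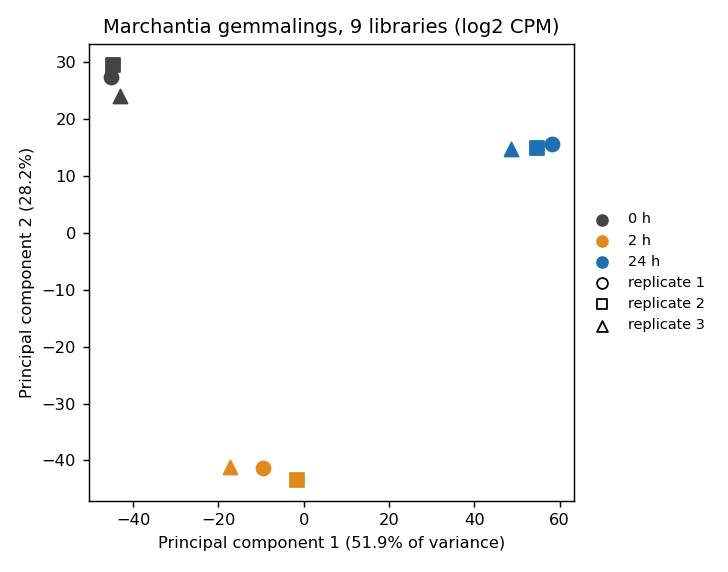
Each point is 1 of the 9 libraries, placed by its scores on the first 2 principal components of log2 CPM (unitless axes, with the share of variance in percent); colour gives the time and shape the replicate number. The libraries at 0 h sit between −45.2 and −43.2 on the first axis and those at 24 h between 48.6 and 58.2.

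Rises and falls after 24 h, relative to the scaled library totals, were about equal in number. The scaling (TMM) takes most loci as unchanged, so an even balance is largely built in. A change in total RNA would not be seen. Of 9896 gene numbers tested, 6041 (61%) differed between 24 h and 0 h at an adjusted p below 0.05 (edgeR's quasi-likelihood test with the replicate number as a block, two-sided, Benjamini-Hochberg). They split almost evenly, with 3048 higher at 24 h (30.8%) and 2993 lower (30.2%), and 3855 were not called. The share called was 49.0% without the replicate block. Tested against a change of 1.5-fold in place of none, 1186 were called higher and 1371 lower. At 5696 (57.6%) the 3 libraries at 24 h lay wholly above or wholly below the 3 at 0 h. For comparison, the same fit called 55.8% of gene numbers at 24 h against 2 h and 36.7% at 2 h against 0 h.

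Many of the calls were small in size. The median log2 change was 0.71 among the loci called higher and −0.80 among those called lower, and the median standard error over all tested was 0.117 on the log2 scale. Changes under 1.5-fold made up 38.8% of the calls higher and 33.0% of the calls lower. A called change of at least 2-fold was found at 2153 gene numbers (21.8%), of which 1014 were higher (10.2%) and 1139 lower (11.5%). At least 4-fold changes were equally frequent in both directions, with 348 higher and 348 lower. Beyond that the rises were more numerous, with 159 higher and 92 lower by at least 8-fold and 33 higher and 14 lower by at least 32-fold. These counts use fitted values, and for 21 called gene numbers with no count at one of the times the fitted value depends on the prior count. Over all gene numbers tested the median log2 change was 0.01, and the middle 50% lay between −0.48 and 0.46. The scaling itself holds that median near 0.

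The calls differed with the number of reads per locus. When the gene numbers were ordered by mean log2 CPM and cut into 4 equal groups of 2474, the lowest group held 594 higher and 556 lower calls and the highest 824 and 914. The calls of at least 2-fold ran the other way, with 464 higher in the lowest group, then 228, 178 and 144. The falls of at least 2-fold numbered 433, 303, 169 and 234 from the lowest to the highest group. The median size of change, called or not, was 0.70 on the log2 scale in the lowest group and 0.37 to 0.47 in the other 3. Precision differs between these groups, since loci with few reads need a larger change to be called.

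**Figure D2:**
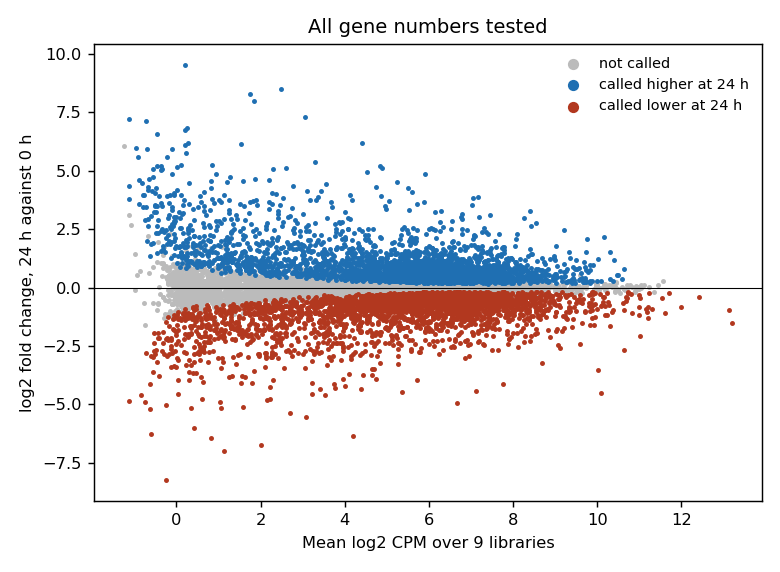
Each point is 1 of the 9896 gene numbers tested, with its mean log2 CPM over 9 libraries on the x axis and its log2 fold change at 24 h against 0 h on the y axis; blue points were called higher (3048), red points lower (2993) and grey points were not called. The largest changes lie at low mean CPM, and in the highest of the 4 groups more loci fell by at least 2-fold (234) than rose (144); points with no count at one time are drawn at their fitted values.

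The composition of the RNA pool shifted with these changes. The loci called higher held 21.5%, 21.7% and 22.4% of counted reads at 0 h and 40.2%, 38.9% and 37.9% at 24 h. The loci called lower held 49.0%, 47.4% and 46.9% at 0 h and 27.8%, 28.4% and 29.6% at 24 h. These loci were chosen by the same libraries, so the shift is a description of how much of the pool they hold and carries no test. At 2 h the loci called higher held 26.3%, 27.8% and 25.4%, closer to 0 h than to 24 h. The loci called with rises of at least 4-fold went from 0.475% ± 0.0355 of reads to 3.19% ± 0.332, and those with falls of at least 4-fold from 4.06% ± 0.296 to 0.701% ± 0.0749 (SD, n = 3 each). The 10 loci with the most reads in each library, a measure that does not use the calls, held 5.76% ± 0.378 of reads at 0 h and 3.74% ± 0.282 at 24 h (SD, n = 3 each). The 100 with the most reads held 21.6% ± 0.986 at 0 h and 18.4% ± 0.747 at 24 h. In both cases the libraries of the times did not overlap, and the exact two-sided permutation test gave p = 0.1, the smallest that 3 against 3 allows.

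**Figure D3:**
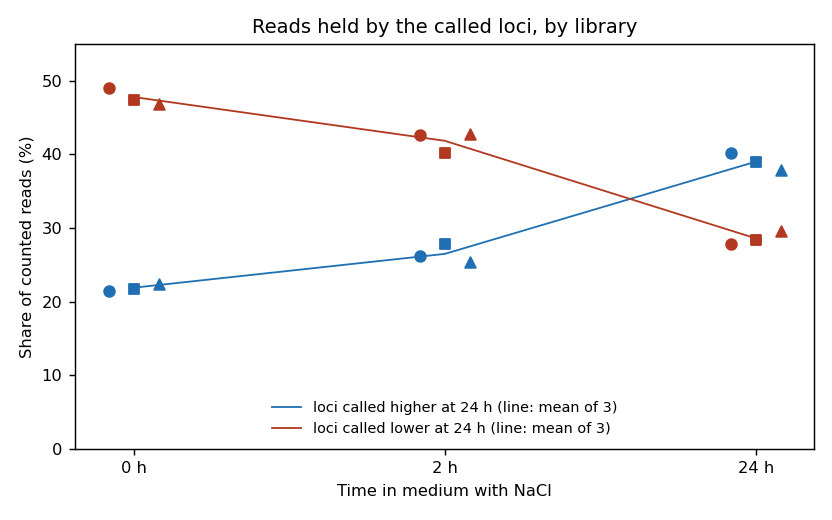
Points give, for each of the 9 libraries, the share of counted reads (%) held by the loci called higher at 24 h (blue) and by those called lower (red); shapes give the replicate number and lines join the means of 3 libraries. The share of the first set rises from 21.9% at 0 h to 39.0% at 24 h and that of the second falls from 47.8% to 28.6%, and the lines cross between 2 and 24 h.

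The largest rises named here started from few reads. They were taken from called loci whose times did not overlap and whose mean was at least 5 CPM. CPM is not scaled by transcript length, so the values below compare libraries within a locus and not loci with each other. Mapoly0092s0072 held 1 read over the 3 libraries at 0 h, none at 2 h and 1113 at 24 h. In CPM its levels at 24 h were 36.4, 40.3 and 29.7. The ratio of 24 h to 0 h was 1003 (95% interval 179.6 to 39634), an interval for counting error only. The 1 read at 0 h lay in replicate 2, and without that library none remained at 0 h. This locus entered the fit through its reads at 24 h, so its direction was largely fixed by the filter. Mapoly0080s0040 stood at 0.332, 0.336 and 0.192 CPM at 0 h, at 3.97, 6.96 and 1.32 at 2 h and at 112, 108 and 98.0 at 24 h. Its log2 fold change was 8.51 ± 0.43 (SE), 365-fold, with an adjusted p of 1.03e-06. It held only 8 reads over the 3 libraries at 0 h, so this fold is looser than its SE states. A further locus of the same scaffold, Mapoly0080s0092, rose in the same stepwise way, from 1.99, 2.13 and 3.46 CPM through 14.8, 35.6 and 13.4 to 180.3, 210.4 and 175. It was 73.7-fold higher at 24 h (log2 fold change 6.20 ± 0.32, adjusted p 1.03e-06). At both loci each time stood clear of the time before it.

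Mapoly0058s0020 had not passed the test by 2 h and rose later. Its levels were 0.332, 0 and 0.0960 CPM at 0 h, 0.407, 0.446 and 0.176 at 2 h, then 13.8, 12.4 and 7.36 by 24 h (log2 fold change 6.18 ± 0.40, adjusted p 3.13e-06). Its total at 0 h was only 4 reads, so the fold is loosely fixed. It entered the fit through its reads at 24 h, and the filter thus largely fixed its direction. Without replicate 1 of 0 h the log2 fold change was 7.25. Mapoly0022s0142 is far better counted and made most of its rise after 2 h. At 2 h it was already above 0 h, by 0.85 ± 0.21 on the log2 scale (adjusted p 0.0111). It went from 5.53, 8.28 and 7.20 CPM at 0 h to 15.8, 12.5 and 10.4 at 2 h, then 322, 297 and 186 by 24 h, 37.1-fold above the start (log2 fold change 5.21 ± 0.19, adjusted p 2.22e-07). Against 2 h alone its log2 change was 4.36 ± 0.17 (adjusted p 6.30e-07). Mapoly0136s0025 rose from 1.33, 1.01 and 1.63 CPM to 14.6, 16.9 and 5.62 at 2 h, then 59.5, 49.2 and 59.3 by 24 h (log2 fold change 5.39 ± 0.39, adjusted p 5.32e-06). At Mapoly0010s0138 the 3 libraries at 24 h were spread over 33.4, 17.02 and 12.8 CPM. All of them stood above the 0.442, 0.112 and 0.288 CPM of 0 h (log2 fold change 6.12 ± 0.39, adjusted p 2.73e-06). Its total at 0 h was 8 reads, so this fold too is loosely fixed.

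One of the largest rises had its high point before 24 h. Mapoly0087s0018 held 2 reads over the libraries at 0 h and reached 119.8, 176 and 232 CPM at 2 h. At 24 h it had come down to 12.8, 14.5 and 11.3 CPM, below 2 h by 3.75 on the log2 scale (SE 0.19, adjusted p 1.68e-06). Compared with 0 h it was still higher, at a ratio of 182 (95% interval 50.2 to 1511).

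Of the 8 largest falls, 7 ended below 2 CPM in every library at 24 h, and Mapoly0004s0139 ended higher. Mapoly0081s0035 is an example with low scatter, though it held only 38 reads over the 3 libraries at 24 h. It stood at 104, 111 and 81.0 CPM at 0 h, 44.4, 47.6 and 45.2 at 2 h, then 1.22, 1.74 and 0.677 by 24 h, 81.0-fold lower than at the start (log2 fold change −6.34 ± 0.19, adjusted p 1.64e-07). Mapoly0004s0139 fell from 415, 363 and 445 CPM to 11.1, 10.2 and 19.3, 30.97-fold (log2 fold change −4.95 ± 0.18, adjusted p 2.75e-07). Mapoly0134s0001 went from 398 reads over the 3 libraries at 0 h to 3 at 24 h. Its level was 18.4, 10.6 and 13.2 CPM at 0 h and 3.15, 3.04 and 1.84 at 2 h, and the ratio of 0 h to 24 h was 147 (95% interval 50.03 to 717). Of the 3 reads at 24 h, 2 lay in replicate 3, and without that library the fitted log2 fold change was −7.85 in place of −6.99. At these 3 loci the fall was under way at 2 h, and at none did a library of one time overlap the next.

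Like Mapoly0134s0001, Mapoly0085s0007 and Mapoly0212s0013 had lost most of their CPM by 2 h, but with more scatter between replicates. Mapoly0085s0007 held 42.1, 51.3 and 14.9 CPM at 0 h, 3.05, 2.05 and 9.13 at 2 h, then 0.244, 0.347 and 0.338 by 24 h (log2 fold change −6.76 ± 0.85, adjusted p 1.25e-04). Replicate 3 started lowest and was highest at 2 h. The log2 fold change was −7.99 without replicate 3 of 0 h and −5.96 without replicate 2 of 0 h. Mapoly0212s0013 fell from 29.6, 23.7 and 10.8 CPM to 3.76, 6.88 and 5.53 at 2 h, then 1.22, 0.695 and 0.423 by 24 h (log2 fold change −4.77 ± 0.42, adjusted p 1.38e-05). The other 3 of the 8 largest falls kept a larger part of their level at 2 h. Mapoly0021s0124 held 46.1, 46.7 and 21.7 CPM at 0 h, 26.2, 19.6 and 15.8 at 2 h, then 0.244, 0.781 and 1.10 by 24 h. Mapoly0025s0077 held 22.7, 28.1 and 32.6 CPM at 0 h, 14.04, 9.46 and 16.7 at 2 h, then 0.244, 0.868 and 0.761 by 24 h. For Mapoly0032s0077 the values were 15.1, 11.4 and 23.4, then 9.46, 7.41 and 5.80, then 0.367, 0.521 and 0.761 CPM. Their log2 fold changes at 24 h against 0 h were −5.55 ± 0.35, −5.38 ± 0.30 and −4.82 ± 0.38, with adjusted p of 2.59e-06, 1.49e-06 and 7.90e-06. Without replicate 3 of 24 h the value of Mapoly0021s0124 was −6.26. These 3 loci held 24, 21 and 18 reads over the libraries at 24 h, so their folds are loosely fixed.

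**Figure D4:**
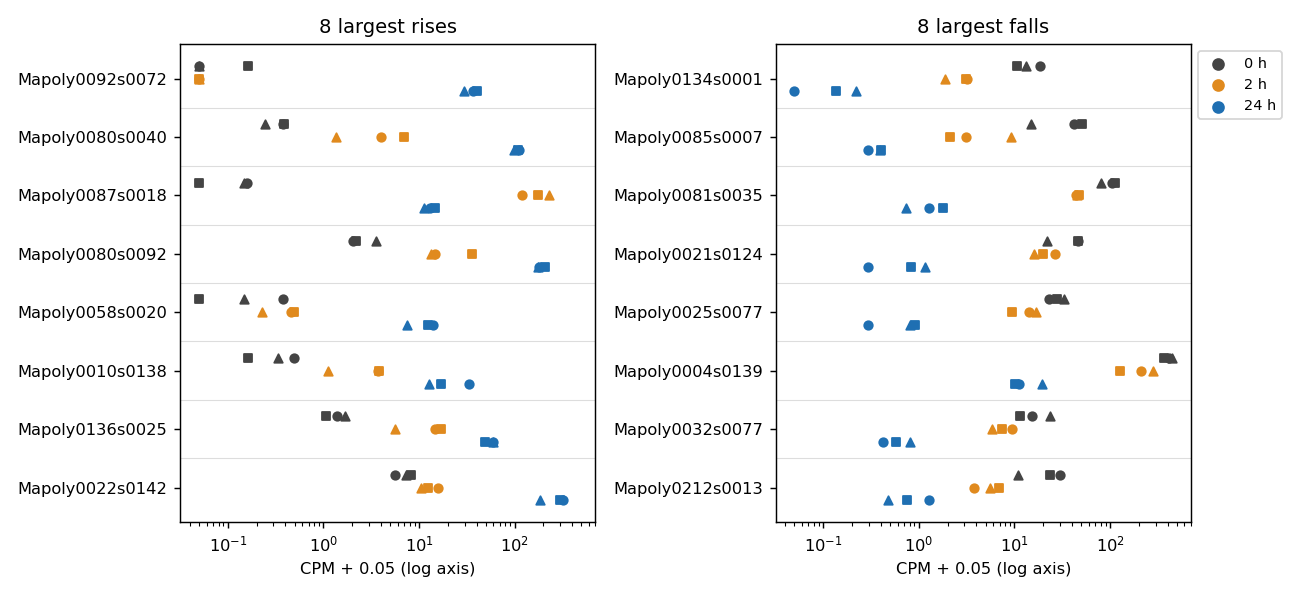
For the 8 largest rises (left) and the 8 largest falls (right), each point is 1 library, with its CPM plus 0.05 on a log axis; colour gives the time, and circles, squares and triangles are replicates 1, 2 and 3. At every locus shown the 3 libraries at 24 h lie apart from the 3 at 0 h, as the rule for naming them required. Mapoly0087s0018 has its highest values at 2 h, between 119.8 and 232 CPM.

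Some loci had no read at all at one of the times. Mapoly0134s0050 held 106 reads over the 3 libraries at 0 h, at 4.42, 2.80 and 3.94 CPM, and none at 24 h. It was at least 39.2-fold lower at 24 h, taking the limit that a count of 0 allows as 3 reads over the group (adjusted p 3.57e-05). At 2 h it was already reduced, to 0.712, 0.357 and 0.878 CPM. In the opposite direction, Mapoly0343s0001 went from 0 reads at 0 h to 57 at 24 h and was at least 17.1-fold higher (adjusted p 2.11e-04). It held 0.102, 0.0893 and 0 CPM at 2 h and 2.32, 2.34 and 0.931 at 24 h. Mapoly0041s0138 went from 0 to 46 reads, at least 13.8-fold (adjusted p 0.00622). Its levels at 2 h were uneven, at 2.75, 0.179 and 0.0878 CPM, and overlapped the 2.08, 1.39 and 1.10 CPM of 24 h. Mapoly0343s0001 and Mapoly0041s0138 entered the fit through their reads at 24 h, and Mapoly0134s0050 through those at 0 h. For these loci the direction was therefore largely fixed by the filter.

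The remaining silent loci named here were in decline by 24 h. Mapoly0022s0047 was absent at 0 h, reached 42.1, 41.1 and 72.2 CPM at 2 h and stood at 5.26, 4.34 and 2.03 CPM at 24 h. It was at least 35.1-fold above 0 h (adjusted p 0.00139) and below 2 h by 3.74 on the log2 scale (SE 0.37, adjusted p 1.26e-04). Mapoly0097s0034 had the same course, with 61.8, 73.9 and 91.2 CPM at 2 h and 3.67, 3.47 and 2.20 at 24 h. It was at least 28.8-fold above 0 h (adjusted p 2.30e-04), and its log2 change from 2 h to 24 h was −4.62 ± 0.23 (adjusted p 6.11e-06).

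Counted in CPM, the 5 largest losses exceeded the largest gain. Since CPM is not scaled by transcript length, this ranks loci by reads and not by transcripts. The 3 largest losses in CPM at 24 h included both of the loci with the highest mean CPM over the 6 libraries. Mapoly0011s0071 stood at 12209, 16955 and 12198 CPM at 0 h and 12309, 13636 and 12989 at 2 h, and at 3852, 5242 and 5433 at 24 h. Its values at 2 h lay within the range of those at 0 h, and it was 2.84-fold lower at 24 h (log2 fold change −1.51 ± 0.12, adjusted p 7.60e-06). Mapoly0114s0049 declined more evenly, from 12886, 12639 and 10627 CPM to 10137, 10149 and 9066 at 2 h, then 5695, 6455 and 6144 by 24 h (log2 fold change −0.98 ± 0.09, adjusted p 1.53e-05). The steepest of the 5 losses was at Mapoly0133s0032, from 4119.9, 4428 and 3079 CPM to 167, 177 and 162. That is 22.9-fold lower (log2 fold change −4.52 ± 0.19, adjusted p 5.79e-07), with 1913, 1709 and 2503 CPM at 2 h.

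Mapoly0082s0008 and Mapoly0079s0038 were the next largest losses. Mapoly0082s0008 fell from 3362, 2314 and 2714 CPM at 0 h to 208, 202 and 331 at 24 h (log2 fold change −3.52 ± 0.17, adjusted p 9.25e-07). It lies in a run of 4 neighbours called lower, Mapoly0082s0006 to Mapoly0082s0009. Mapoly0079s0038 fell from 3698, 3208 and 3938 CPM to 879.6, 863 and 839 (log2 fold change −2.06 ± 0.09, adjusted p 6.64e-07). Most of that loss came after 2 h, when it still held 3191, 2474 and 3034 CPM.

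The other 3 of the 5 loci with the highest mean CPM changed less. Mapoly0053s0082 fell from 5889.7, 4795 and 4406 CPM to 2908, 2565 and 2938 (log2 fold change −0.83 ± 0.09, adjusted p 6.02e-05). At Mapoly0015s0035 the libraries overlapped, with 5247, 8354 and 5604 CPM at 0 h and 3654, 5608 and 5292 at 24 h. It was lower in each pair of libraries with the same number (log2 fold change −0.39 ± 0.10, adjusted p 0.00714), and without the replicate block the adjusted p was 0.163. Mapoly0015s0122 held 3737, 3524 and 3777 CPM at 0 h and 3035, 2950.5 and 3378 at 24 h. Its small fall passed the threshold narrowly (log2 fold change −0.24 ± 0.09, adjusted p 0.0399), and without the block it did not (adjusted p 0.101). Leaving out single libraries also ended the call at both of these loci. At Mapoly0015s0035 the adjusted p was 0.0631 without replicate 2 of 0 h, 0.0522 without replicate 1 of 24 h and 0.0692 without replicate 2 of 24 h. At Mapoly0015s0122 it was 0.101, 0.106 and 0.0766 without replicates 1, 2 and 3 of 0 h, 0.0541 without replicate 1 of 2 h, and 0.210 and 0.232 without replicates 1 and 2 of 24 h.

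The largest gains in CPM came from a pair of neighbouring loci. Mapoly0008s0265 rose from 839, 636 and 547 CPM at 0 h to 3749.5, 2905 and 2402 at 24 h, 4.48-fold (log2 fold change 2.16 ± 0.08, adjusted p 2.88e-07). Its neighbour Mapoly0008s0264 rose from 489, 602 and 425 CPM to 2004, 2502 and 1845, 4.19-fold (log2 fold change 2.07 ± 0.08, adjusted p 2.46e-07). At 2 h the pair held 857, 725 and 682 and 545, 749 and 567 CPM, above the 0 h library of the same number in every case but by far less than at 24 h. The next gains were at loci on 3 other scaffolds. Mapoly0035s0014 went from 256, 247 and 265 CPM through 566, 747 and 449 to 1384, 1386 and 1525 (log2 fold change 2.48 ± 0.16, adjusted p 2.57e-06). Mapoly0011s0125 went from 677, 815 and 994 CPM to 2275, 2453 and 2367 (log2 fold change 1.52 ± 0.15, adjusted p 3.07e-05).

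Mapoly0005s0074 moved in opposite directions at the later times. It held 705, 677 and 639 CPM at 0 h, a lower 508, 545 and 365 at 2 h and a higher 2163, 1772 and 1888 at 24 h. Its log2 fold change at 24 h was 1.53 ± 0.12 against 0 h (adjusted p 6.89e-06) and 2.05 ± 0.12 against 2 h (adjusted p 3.07e-06). Of the 37 loci named by the rule, 33 were called at 24 h against 2 h, a contrast that called 55.8% of all gene numbers. These loci were named for their change from 0 h and share the 24 h libraries with it, so nothing is read from that count.

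Some called loci lay in runs along the scaffolds. A run was counted where 3 or more loci with consecutive numbers on a scaffold were all called in the same direction. There were 93 runs higher and 92 runs lower at 24 h, holding 623 loci. Without the replicate block the runs numbered 112 in all. With 30.8% of all gene numbers called higher and 30.2% lower, some runs would arise among unrelated neighbours. How many was not worked out, so the number of runs is a description only. With a change of at least 2-fold required of each member, 17 runs higher and 15 lower remained, holding 116 loci. Among 2020 pairs of adjacent loci that were both called, 1191 (59.0%) had the same direction. Among the 336 pairs in which both changed at least 2-fold, 254 (75.6%) did. Beside these shares, the calls as a whole split almost evenly, with 50.5% of them higher, a split that the scaling largely sets. Over all 5382 adjacent pairs tested the Pearson correlation of their log2 fold changes was 0.222, a correlation across pairs of loci that share libraries and are not independent replicates. Neighbours can be copies of one gene or can overlap, and reads that match more than 1 place may have been counted differently among copies. The deposited line for multimapping reads is 0 in every library, so the part of shared reads in the runs was not tested.

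The longest run held 10 loci called higher, Mapoly0070s0061 to Mapoly0070s0070, with a median log2 fold change of 1.94. The second of them, Mapoly0070s0062, held the most reads and had the largest change. It rose from 110.4, 104 and 86.2 CPM at 0 h to 402, 454 and 337 at 2 h, then 1055, 909.6 and 948 by 24 h (log2 fold change 3.29 ± 0.11, adjusted p 1.96e-07). Mapoly0070s0063 followed, from 46.8, 54.3 and 46.9 CPM to 389, 426 and 398 (log2 fold change 3.04 ± 0.10). The first of the run, Mapoly0070s0061, had the smallest change, from 37.8, 56.2 and 29.4 CPM to 77.99, 64.6 and 68.2 (log2 fold change 0.81 ± 0.16, adjusted p 0.00219). The members differed in timing. Mapoly0070s0062, Mapoly0070s0063 and Mapoly0070s0067 were higher at 24 h than at 2 h, with log2 changes of 1.30 ± 0.10, 1.34 ± 0.09 and 0.59 ± 0.12. Mapoly0070s0065, Mapoly0070s0066, Mapoly0070s0068, Mapoly0070s0069 and Mapoly0070s0070 were lower at 24 h than at 2 h, by 0.58 to 2.73 on the log2 scale. The remaining pair, Mapoly0070s0061 and Mapoly0070s0064, did not pass the test between 2 h and 24 h (adjusted p 0.212 and 0.234).

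A run of 6 loci, Mapoly0035s0082 to Mapoly0035s0087, was nearly silent at 0 h and had its high point at 2 h. No member held more than 2 reads over the 3 libraries at 0 h. Mapoly0035s0082, with the most reads of them, stood at 16.99, 29.1 and 28.98 CPM at 2 h and 1.83, 3.21 and 1.61 at 24 h. Its ratio of 24 h to 0 h was 31.98 (95% interval 8.53 to 269), from 2 and 71 reads (adjusted p 3.73e-04). Both reads at 0 h lay in replicate 1, which alone fixes that ratio. Without that library the fitted log2 fold change was 7.70 in place of 4.73, and 4.11 without either of the other libraries at 0 h. The adjusted p of the other 5 lay between 0.0043 and 0.0264, and their levels at 24 h were at most 1.48 CPM. Every member was lower at 24 h than at 2 h, by 2.98 to 4.45 on the log2 scale. The 5 members other than Mapoly0035s0082 entered the fit through their reads at 2 h, so that direction was largely fixed by the filter for them. All 6 thus count as higher at 24 h than at 0 h at levels well below their own at 2 h.

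The longest run of falls held 8 loci, Mapoly0027s0165 to Mapoly0027s0172, with a median log2 fold change of −1.35. At 2 h, 7 of the 8 did not pass the test against 0 h, and Mapoly0027s0168 was higher there, by 0.32 on the log2 scale (adjusted p 0.0212). Mapoly0027s0167, with the largest fall, stood at 152, 144 and 172 CPM at 0 h, 140.2, 121 and 186 at 2 h, then 14.8, 22.5 and 38.3 by 24 h (log2 fold change −2.67 ± 0.19, adjusted p 4.28e-06). The first of the run, Mapoly0027s0165, had 339.8, 311 and 342, then 387, 296 and 399, then 119, 135 and 185 CPM (log2 fold change −1.19 ± 0.13, adjusted p 4.23e-05). The smallest fall was that of the last, Mapoly0027s0172 (−0.82 ± 0.11). In this run the 3 libraries at 24 h lay below the 3 at 0 h at every locus. The run Mapoly0199s0015 to Mapoly0199s0020, of 6 loci, fell by 1.06 to 1.98 on the log2 scale. Its first member, Mapoly0199s0015, stepped down from 973, 948 and 899 CPM to 635, 539.9 and 579 at 2 h, then 412, 419 and 367 by 24 h.

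**Figure D5:**
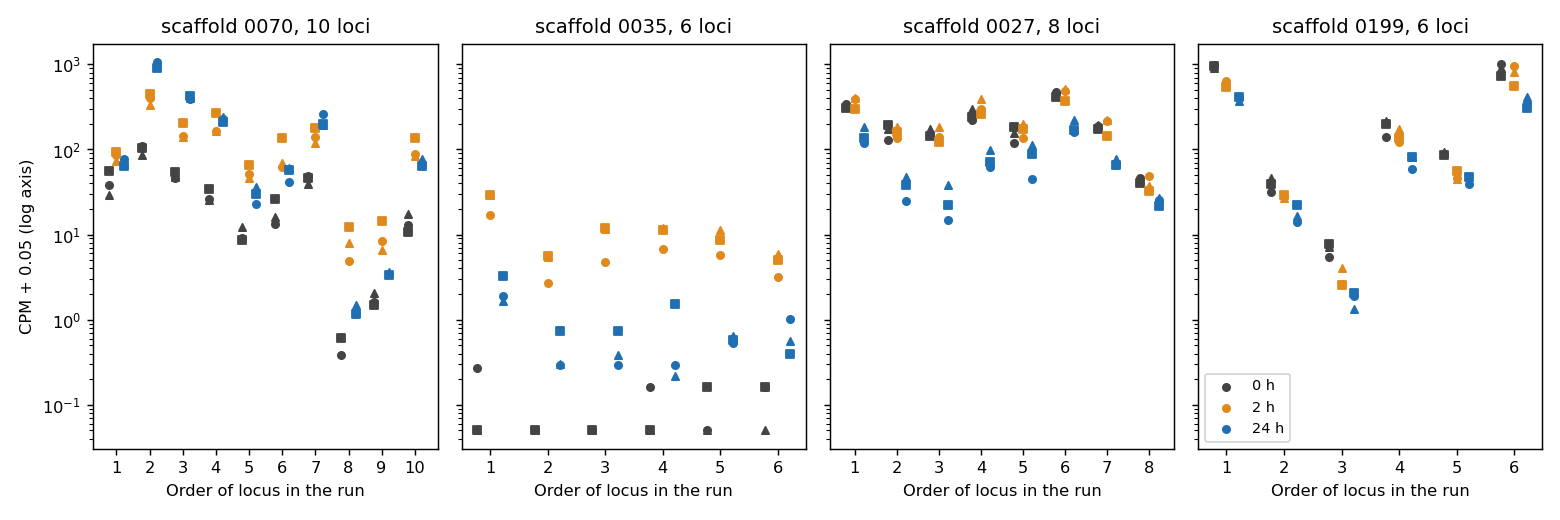
Each panel shows 1 run of neighbouring loci in the order of their numbers; each point is the CPM plus 0.05 of 1 library on a log axis, with colour for the time and circles, squares and triangles for replicates 1, 2 and 3. In the runs on scaffolds 0070 and 0035 the 24 h values lie above 0 h, on scaffold 0035 well below the 2 h values; in the runs on scaffolds 0027 and 0199 the 24 h values lie below 0 h.

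The balance of rises and falls was also read scaffold by scaffold. On 117 scaffolds with at least 30 gene numbers tested, the median log2 fold change ran from −0.25 to 0.41. The ends of this range are extremes among many small sets, and whether scaffolds differ beyond sampling was not tested. Mapoly0070, which holds the run of 10, had the highest median, with 27 higher and 13 lower calls among 62 tested. Mapoly0077 came next at 0.31, with 16 higher and 7 lower among 33. Mapoly0024 had the lowest, with 14 higher and 36 lower among 78, followed by Mapoly0060 at −0.22, with 10 higher and 25 lower among 56.

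Loci of the Y chromosome held reads in every library, as the label of a male strain requires. Of 113 gene numbers with names that start with MapolyY in the sheets, 26 held enough reads to be tested. Among them 6 were higher and 2 lower at 24 h, or 30.8% called beside 61% of all gene numbers, and their median log2 change was 0.18 beside 0.01. With so few members nothing particular to them is read from these shares. MapolyY_A0041 had the clearest rise, from 299, 329 and 348 CPM at 0 h to 590.0, 560.1 and 539 at 24 h (log2 fold change 0.79 ± 0.08, adjusted p 3.44e-05). At 2 h it stood at 316, 316 and 301 CPM, within the range of 0 h. MapolyY_A0055 rose from 3.10, 3.81 and 3.65 to 5.26, 6.51 and 7.44 CPM (log2 fold change 0.86 ± 0.18, adjusted p 0.00274). MapolyY_B0006 fell from 2.43, 3.92 and 4.32 CPM to 0.611, 0.781 and 0.169 (log2 fold change −2.78 ± 0.51, adjusted p 0.0012). It entered the fit mainly through its reads at 0 h, so that direction was largely fixed by the filter. MapolyY_B0001 was not called and held 309, 278 and 316 CPM at 0 h and 295, 266 and 293 at 24 h (log2 difference −0.08 ± 0.06, adjusted p 0.312). The Y loci tested held 0.122% to 0.135% of counted reads at 0 h and 0.160% to 0.162% at 24 h. MapolyY_A0041 supplied most of this rise, with 238 of the 256.9 CPM by which the summed mean grew. Without it the summed level was 977, 986 and 1017 CPM at 0 h and 975, 1025 and 1037 at 24 h, and the times overlapped.

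Among the Y loci called higher, MapolyY_A0025.2 shows how the replicate block acts. It held 3.10, 18.5 and 11.2 CPM at 0 h and 5.50, 24.7 and 14.9 at 24 h, so the times overlapped. The rise was present in each pair of libraries with the same number (log2 fold change 0.49 ± 0.16, adjusted p 0.0256). Without the block 2 of the 26 Y loci were called higher in place of 6. The same number, 2, was called higher when replicate 1 or replicate 2 of 0 h or replicate 2 of 24 h was left out. A single Y locus was called lower in place of 2 when replicate 2 of 0 h or replicate 1 or 2 of 24 h was left out. The suffix marks 1 of several gene numbers at that locus. Among all loci, 20 had at least 2 gene numbers called, and at 1 of them the calls were opposed: Mapoly0029s0132.1 rose (0.98 ± 0.16) and Mapoly0029s0132.2 fell (−0.50 ± 0.11).

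The first Marchantia experiment of the series holds libraries labelled with the same times, but its labels could not be used to check these results. Each of its 16 libraries was most like a library of another labelled time (0 of 16 had one of its own time as nearest, by Spearman correlation over genes). For the library labelled 0 h, replicate 1, the nearest was the one labelled 48 h, replicate 1 (rho 0.995, beside 0.960 with the other library labelled 0 h). As labelled, its contrast of 24 h against 0 h called 0 of 11257 gene numbers with edgeR, with 1267 at an unadjusted p below 0.05. A fit of only the 4 libraries with these labels called 53 higher and 129 lower of 10529, with 2725 at an unadjusted p below 0.05. Of the 37 loci named here, none was called in the first of these fits and 6 in the second. The log2 fold changes as labelled had the same sign as here at 31 of the 37, in the fit of 16 libraries. The same share over all gene numbers was not worked out, so nothing is read from that count. For Mapoly0081s0035 the value was −6.25 there and −6.34 here, for Mapoly0133s0032 −4.31 and −4.52, and for Mapoly0080s0092 6.13 and 6.20. At Mapoly0087s0018 the signs were opposite, with −2.27 there and 7.30 here. They were also opposite at Mapoly0025s0077 (0.34 there), Mapoly0015s0035 (0.85), Mapoly0035s0082 (−1.74), Mapoly0022s0047 (−2.56) and Mapoly0097s0034 (−3.54). With the labels in doubt, these values are given side by side only.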

How the data were processed

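Per the labels, frozen gemmalings were extracted with a column kit for plant RNA and sequenced as Illumina libraries. STAR and TAIR10, an Arabidopsis build, are named for these samples in the submitters' processing notes. Neither a STAR version nor a Marchantia genome or annotation is given in the sources used here. The authors deposited raw counts, 1 sheet per library, with columns for either strand, the read strand and the opposite strand, and 4 summary lines that were left out of the depth. The opposite-strand counts were used, since 0.961% to 1.42% of stranded reads lay on the read strand. Libraries were tied to samples through the deposited condition sheet and the sample titles, and 0 columns of per-sample values were left unmatched.

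Gene numbers that passed filterByExpr (grouped by time) were scaled by TMM and fitted with edgeR 4.0.16 in R 4.3.3, over 9 libraries with time and replicate number as terms (4 residual degrees of freedom). The quasi-likelihood test was two-sided with Benjamini-Hochberg adjustment, and a gene number was called at an adjusted p below 0.05. The standard error is the size of the log2 fold change divided by the square root of F. Where a time holds few reads, it can be smaller than the counting error alone. CPM uses TMM-scaled totals. Simulated counts with known changes were used to test the scripts.

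The block was set by the rule of this comparison. Deviations from the group means correlated at 0.160 to 0.533 between libraries with the same number and at −0.435 to 0.0458 between others. Within a time the deviations cancel out, so higher values for the same number force lower ones between others. Both ranges are thus a single observation. No 2 replicates were identical or agreed within sampling noise. The members and lists were chosen with earlier results of these data known.

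Loci were named by a rule: among 4529 called gene numbers whose times did not overlap and whose mean was at least 5 CPM, the 8 largest rises and falls by fold and the 5 largest gains and losses in CPM. The rule adds the 5 highest in mean CPM, the first of each of the 3 longest runs, and 5 of the 21 called with no read at one time. Runs of 6 loci tied for the last of these places, and the one whose smallest change was largest, from Mapoly0035s0082, was taken. The tied runs started at Mapoly0199s0015, Mapoly0033s0010 (higher, median log2 fold change 0.90) and Mapoly0154s0034 (lower, median −1.95). Other loci in the text, such as members of a run, scaffold or the Y chromosome, were chosen after their values were seen. Alternatives left out the block, the 2 h libraries, single libraries or a replicate number, or changed the scaling, filter, strand column, threshold or tool (DESeq2 1.42.0). Leaving out a whole replicate number, summing gene numbers per locus and requiring 2-fold in runs were chosen after seeing the data.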

Additional observations from a re-analysis of the deposited data

Results flagged for a closer look

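The comparison used the counts of the opposite strand. The column for the read strand, which the main fit left out, held a signal of its own. Its reads had entered only the alternative with counts of either strand. At 379 gene numbers over 90% of the stranded reads lay on the read strand, and 200 of these were called at 24 h against 0 h (108 higher and 92 lower) when that column was fitted in the same way. Of the 826 gene numbers tested in that column, 186 were higher and 197 lower, or 46.4% called. Only 22 of the 379 were tested in the opposite-strand counts, and 6 were called there. Mapoly0089s0018 held 126, 205 and 261 read-strand reads at 0 h and 3, 11 and 9 at 24 h (log2 fold change −4.83 ± 0.31, adjusted p 4.15e-09), with 0 opposite-strand reads in the 9 libraries. Mapoly0016s0177 fell from 175, 145 and 100 reads to 3, 9 and 12 (log2 fold change −4.20 ± 0.31). Mapoly0112s0042 rose from 4, 10 and 8 reads to 92, 117 and 97 (log2 fold change 3.69 ± 0.33, adjusted p 1.35e-07). Whether the annotated strand of these loci is right was not tested.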

How the results depend on the processing

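The counts of 3048 loci higher and 2993 lower moved by over 1.5 times under 1 alternative. Tested against a change of 1.5-fold, 1186 were higher and 1371 lower, and for the Y loci 1 higher and 1 lower. The share called, 61% as reported, was 49.0% without the block, 49.3% without replicate number 1, 46.9% without number 2, 41.8% with no filter and 51.4% to 61.3% without any single library. Leaving out the replicate block gave 2409 higher, all among the 3048, and 2443 lower, 2441 of them among the 2993. Without the block there were also 2 Y loci higher, 112 runs in place of 185, and a gain in read share of 15.3 percentage points in place of 17.1. The cause was not tested. DESeq2 called 2790 higher and 2703 lower, of which 2770 and 2691 were shared. Median-of-ratios scaling gave 3080 and 2966, no filter 3282 and 2849, a filter at 1 CPM 3042 and 2990, the 6 libraries alone 2934 and 2886, and counts of either strand 3139 and 3066, with 2 loci opposed. Leaving out a single library gave 2752 to 3096 higher, 2400 to 3039 lower, 132 to 197 runs, 2 to 6 Y loci higher and 1 to 3 lower. With a whole replicate number left out there were 2485 to 2939 higher, 2149 to 2993 lower, 111 to 175 runs, 2 to 5 Y loci higher and 1 to 3 lower. In the first experiment 6 of the named loci were called with only 4 libraries fitted, in place of 0. No named locus changed direction in any alternative run, though leaving out 1 library moved the fitted fold of 8 of them by over 1.5 times, each with 24 reads or fewer at one time. Mapoly0015s0035 and Mapoly0015s0122 lost their calls in several, and Mapoly0070s0061 did when tested against 1.5-fold (adjusted p 0.111). Mapoly0343s0001 was too rare to be tested in 4 of them. Depth, lowest in replicate 1 at 24 h, limits the rarest loci, whose folds rest on few reads.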
